A study of Mus musculus with 405 samples.

Results

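The 8 genes described here mark the oligodendrocyte lineage: Pdgfra, Cspg4, Olig1, Olig2, Sox10, Mbp, Bcas1 and Gpr17. They were chosen by name, with earlier results of these data known. All 8 were among the 23893 genes of a count table on the fungicide pyraclostrobin, and 4 of them (Olig1, Olig2, Cspg4 and Mbp) were among the 13304 genes of a table covering a screen of 297 chemicals. The cells were primary cortical cultures from embryonic day 15 mice, the offspring of C57BL/6J dams and CAST/EiJ males, and polyA RNA was sequenced. Every culture received 5-fluoro-2′-deoxyuridine with uridine triphosphate on day in vitro (DIV) 3 to stop mitosis, and a chemical or the vehicle dimethylsulphoxide was added on DIV 7 for 24 h. The count table held 4 libraries treated with 0.1 μM pyraclostrobin and 4 vehicle libraries, whose total counts ranged from 2409623 to 7833440. The screen held 49 vehicle libraries and 344 chemical libraries, of which 32 were treated with topotecan at 0.3 μM. Most chemicals (282) had 1 library, and 257 were given at 10 μM.

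Oligodendrocytes make the myelin sheaths of the central nervous system. They arise from dividing precursor cells that carry the platelet-derived growth factor receptor PDGFRA and the NG2 proteoglycan encoded by Cspg4, and that depend on the transcription factors OLIG2 and SOX10. As precursors commit to differentiation they pass through a stage marked by the receptor GPR17 and by BCAS1, and then make myelin proteins such as MBP. Several of these genes are not restricted to the lineage: NG2 is also made by pericytes, OLIG1 and OLIG2 are made by ventral forebrain progenitors and by some astrocytes, and the Mbp locus also gives golli transcripts in neurons.

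Olig1 and Olig2 are neighbors on mouse chromosome 16. In mm9, Olig2 lies at chr16:91225795-91228922 and Olig1 at chr16:91270014-91272184, both on the plus strand and 41.1 kb apart. Cspg4 lies at chr9:56712911-56747677, also on the plus strand. The 250 bases that precede the annotated starts of these 3 genes are printed below. Olig1 and Olig2 were chosen as the pair of members with the highest correlation in the screen. Cspg4 was chosen as the member with the greatest change under pyraclostrobin. Capitals mark CCAAT boxes on either strand (CCAAT or its complement ATTGG), a motif picked out after the sequences had been read.
Olig1, chr16:91269764-91270013, plus strand: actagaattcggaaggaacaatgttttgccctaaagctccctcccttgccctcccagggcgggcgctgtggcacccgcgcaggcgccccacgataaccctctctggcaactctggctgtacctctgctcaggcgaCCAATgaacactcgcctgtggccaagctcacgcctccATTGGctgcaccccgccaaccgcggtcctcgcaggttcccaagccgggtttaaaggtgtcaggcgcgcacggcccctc
Olig2, chr16:91225545-91225794, plus strand: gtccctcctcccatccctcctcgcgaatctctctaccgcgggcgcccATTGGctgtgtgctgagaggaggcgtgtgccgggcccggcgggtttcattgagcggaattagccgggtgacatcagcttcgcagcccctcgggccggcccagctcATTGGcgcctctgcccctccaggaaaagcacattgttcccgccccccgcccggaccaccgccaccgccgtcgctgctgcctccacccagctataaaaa
Cspg4, chr9:56712661-56712910, plus strand: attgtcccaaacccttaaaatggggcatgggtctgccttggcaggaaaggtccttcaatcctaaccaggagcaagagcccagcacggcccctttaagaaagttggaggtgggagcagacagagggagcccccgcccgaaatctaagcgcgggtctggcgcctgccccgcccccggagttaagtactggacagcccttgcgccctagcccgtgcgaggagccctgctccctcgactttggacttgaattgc
The Olig1 and Olig2 windows each held 2 CCAAT boxes, and the Cspg4 window held 0. Of 22233 promoter windows of the same length, 35% held at least 1. None of the 3 windows held an E-box (CANNTG, on either strand), which was present in 63.6% of all windows.

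The count table showed which members the cultures expressed. Per length of exon, Olig1 was the highest member in vehicle, at 33.6 ± 20.7 CPM per kb (SD, n = 4), where CPM is the count scaled to the library total. Mbp stood at 3.22 ± 0.082 and Olig2 at 2.88 ± 1.23 on the same scale, so that these neighbors in the order did not differ beyond their spread, and Cspg4 stood at 0.696 ± 0.0878. With pyraclostrobin the order was Olig1 (72.6 ± 25.9), Olig2 (8.69 ± 1.86), Mbp (3.39 ± 0.523) and Cspg4 (3.22 ± 0.260), and the last pair lay within their spread.

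The other 4 members were at or near 0. Sox10, without which oligodendrocytes do not mature, had 2 counts in vehicle replicate 3 and 0 in the other 7 libraries. Gpr17 had 3, 0, 1 and 0 counts in pyraclostrobin replicates 1 to 4 and 0, 0, 1 and 1 in the vehicle replicates. Bcas1 had 0, 0, 0 and 1 with pyraclostrobin and 1, 0, 1 and 0 in vehicle. Pdgfra had 2, 6, 2 and 0 counts with pyraclostrobin and 0, 2, 5 and 7 in vehicle. Vehicle replicates 3 and 4 were the deepest, at 7833440 and 7082405 total counts, against 2409623 to 2893598 in the other libraries. Scaled to library totals, Pdgfra was at 0.996 ± 0.983 CPM with pyraclostrobin and 0.587 ± 0.419 in vehicle (SD, n = 4). No library held more than 7 counts of any of these 4 genes, and a count of 0 allows a level of up to 0.383 to 1.25 CPM, depending on the library. These limits cover counting error only. Of 19 other myelin genes, 8 had 10 counts or fewer over all 8 libraries, and Mag and Fa2h had none. Other myelin genes were detected in vehicle, among them Mog at 10.8 ± 2.17 and Cnp at 15.4 ± 5.53 CPM (SD, n = 4). These 2 values are after TMM scaling, which corrects library totals for composition.

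Pyraclostrobin, an inhibitor of mitochondrial complex III, raised Cspg4 and Olig2. Of the 8 members, 4 had at least 10 counts in at least 4 libraries and could be tested, and 2 of those 4 were higher at an adjusted p under 0.01 (edgeR quasi-likelihood test, Benjamini-Hochberg adjustment). Over all 12324 genes tested, 21.3% were called, 12.1% as higher and 9.22% as lower. In these bulk libraries, more cells of a type and more RNA per cell cannot be told apart.

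Cspg4, the NG2 proteoglycan, was measured at 24.3, 22.2, 26.6 and 25.7 CPM after TMM scaling, which corrects library totals for composition, in pyraclostrobin replicates 1 to 4. The vehicle replicates 1 to 4 were at 6.06, 7.01, 5.255 and 5.40. The groups did not overlap, as was the case for 18.2% of all genes in the same direction. The log2 fold change was 2.08 (SE 0.184, edgeR adjusted p = 2.66e-05), or 4.23-fold, and every library left out in turn kept it between 2.00 and 2.15.

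Olig2, a basic helix-loop-helix factor that specifies the lineage, was at 25.1, 16.5, 22.1 and 17 CPM with pyraclostrobin. In vehicle it was at 11.8, 6.62, 6.20 and 4.95. Again no vehicle library reached the lowest treated one. Its log2 fold change was 1.50 (SE 0.281, edgeR adjusted p = 0.00189), or 2.83-fold.

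Olig1, the neighbor and relative of Olig2, was at 228, 123, 130.2 and 119 CPM with pyraclostrobin. The vehicle replicates were at 144, 47.5, 56.3 and 57.6. Replicate 1 was the highest library of each group, and vehicle replicate 1 lay above 3 of the 4 treated libraries. With all 8 libraries the log2 difference was 0.99 (SE 0.346, edgeR adjusted p = 0.0458) and did not pass 0.01. Without replicate 1 of both groups, a choice made after seeing the data, it was 1.18 (SE 0.0941, edgeR adjusted p = 9.48e-09), in a fit that called 39.2% of all genes. Leaving out vehicle replicate 1 alone gave 1.46 (SE 0.217, edgeR adjusted p = 2.51e-04), whereas leaving out pyraclostrobin replicate 1 alone gave 0.68 (SE 0.327, edgeR adjusted p = 0.150). Treated libraries were above the vehicle library of the same number in 4 of 4 cases, by 0.66 to 1.37 on the log2 scale. No label marks a shared number as a pair. At least 18.2% of all genes meet 4 of 4, since that share had no overlap between the groups in this direction.

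Mbp, the myelin basic protein gene, was at 23.15, 27.4, 32.7 and 25.3 CPM with pyraclostrobin and at 28.5, 28.8, 29.1 and 27.9 in vehicle. The groups overlapped. Its log2 difference was -0.07 (SE 0.151, edgeR adjusted p = 0.743), where the median of all tested genes was -0.0021.

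**Figure D1:**
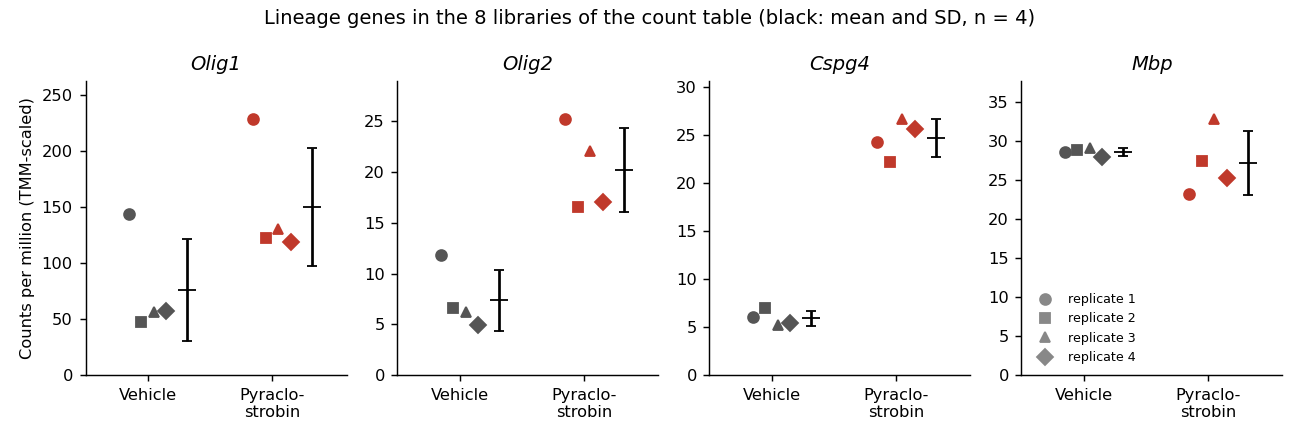
CPM after TMM scaling (vertical axes, each from 0) of the 4 testable members in vehicle (gray) and 0.1 μM pyraclostrobin (red). Each symbol is 1 library and its shape gives the replicate number, and black bars give the mean and SD of 4 libraries. Cspg4 and Olig2 do not overlap between groups, whereas vehicle replicate 1 of Olig1 (144) lies above 3 treated libraries, and Mbp overlaps.

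Replicate 1 of both groups stood apart from the other libraries. Its counts differed from those of the other libraries of its group by 7.79 to 26 chi-square units per degree of freedom, against 1.82 to 2.98 among replicates 2 to 4. The 8 astrocyte markers summed to 4011 CPM in pyraclostrobin replicate 1 and to between 1179 and 1357 in replicates 2 to 4, and to 1254 against 704 to 742 in vehicle. The pyraclostrobin library of replicate 1 was also the pyraclostrobin library of the screen.

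Genes that act beside the members moved in both directions. The lists of these genes were also chosen with earlier results of these data known. Of 13 testable precursor genes, 4 rose and 2 fell, where 12.1% of all genes rose and 9.22% fell. The precursor genes had a median log2 difference of 0.071. Ednrb, an endothelin receptor found on precursors and astrocytes, rose by 2.47 (SE 0.515, edgeR adjusted p = 0.00357). Sox8, a SOX10 relative, rose by 1.66 (SE 0.328, edgeR adjusted p = 0.00263), and the matrilin gene Matn4 by 1.50 (SE 0.354, edgeR adjusted p = 0.00698). Sox6 was the other gene that rose (0.97). Sox5, which is also expressed in deep-layer cortical neurons, fell by 1.15 on the log2 scale (SE 0.196, edgeR adjusted p = 0.00113), and Cspg5, a neuronal and glial proteoglycan, fell by 0.77.

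Of 9 testable genes of the committed stage, Itpr2 (log2 2.24) and Tns3 (2.23) rose and Gpr37 (-1.13) fell. ITPR2 is a calcium release channel and TNS3 is a tensin of focal adhesions. Of 6 testable myelin genes, the transferrin gene Trf rose (1.50) and Mog fell (-0.97). The median over the myelin genes was -0.20. With all 8 libraries, 12.1% of all genes were higher and 9.22% lower. Without replicate 1 the counts were 5 higher and 3 lower for precursor genes, 3 and 1 for the committed stage, and 2 and 2 for myelin, while 19.7% of all genes were higher and 19.4% lower.

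Of 18 testable genes of growth factor and patterning signals that act on precursors, 9 rose and 0 fell at an edgeR adjusted p under 0.01, where 12.1% of all genes rose and 9.22% fell. The hedgehog pathway genes Gli3 (2.26, SE 0.248) and Smo (2.10, SE 0.253) and the receptor Pdgfrb (1.94, SE 0.321), a pericyte gene, rose most. The ligand gene Pdgfa, which drives precursor division, differed by 0.29 (SE 0.238, edgeR adjusted p = 0.383). Without replicate 1, 11 of 17 rose and 1 fell, where 19.7% of all genes rose and 19.4% fell.

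Markers of other cells moved with these genes, in a comparison where 12.1% of all genes rose and 9.22% fell. Without replicate 1 these shares were 19.7% and 19.4%. All 6 testable microglial markers rose, and their sum was 21.3 to 29.4 CPM in vehicle and 80.1 to 143 with pyraclostrobin. Of 8 pericyte and smooth muscle markers, only Acta2 and Tagln had enough counts, and both rose. The 8 summed to 66.0 to 144 in vehicle and to 1100 to 1549 with pyraclostrobin, while Kcnj8 and Abcc9, which define brain pericytes, had 2 and 10 counts over all 8 libraries. Of 5 testable fibroblast markers 4 rose, with sums of 67.3 to 114 in vehicle and 489.7 to 817 with pyraclostrobin. Astrocyte markers rose in 1 of 8 cases at a median of 1.75, and without replicate 1 in 6 of 8, with Slc1a2 lower (-0.90). Dividing-cell markers rose in 4 of 5 cases, and 6 of 8 neuronal markers fell, with sums of 8203 to 9152 in vehicle and 4154 to 4974 with pyraclostrobin. Their part in the changes of Cspg4, Olig1 and Olig2 was not tested.

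**Figure D2:**
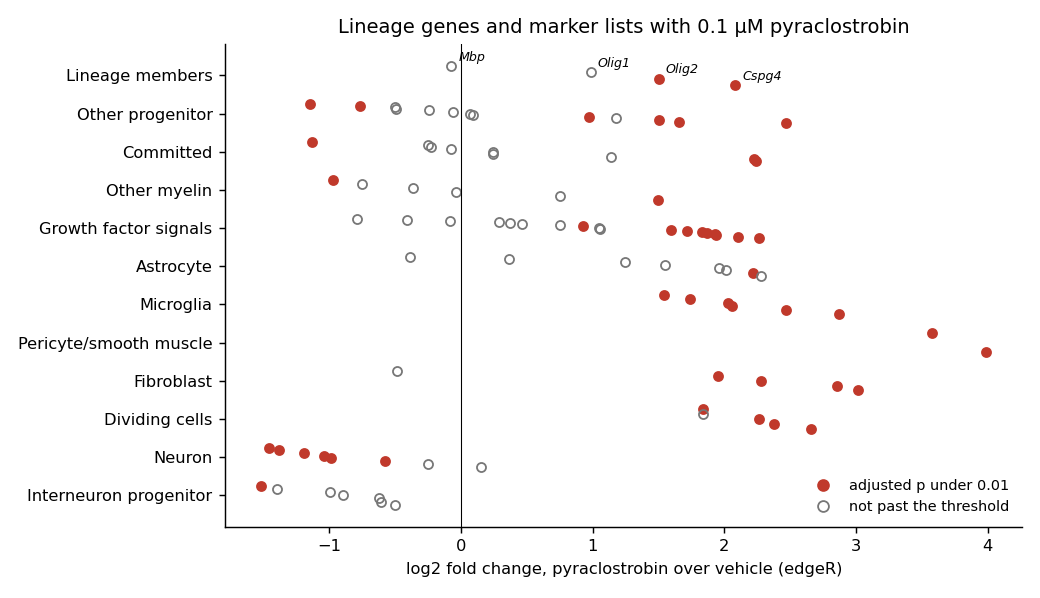
Log2 fold change of pyraclostrobin over vehicle (horizontal axis) for each testable gene of the lineage and marker lists (rows), with filled red points for an edgeR adjusted p under 0.01. Cspg4 (2.08) and Olig2 (1.50) are filled among the members, the neuronal markers lie mostly below 0, and the microglial, fibroblast and muscle markers lie mostly above 1.

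In the screen, levels were the log10 values of the authors, turned into log2 units and centered per gene, so that 0 is near the middle of all libraries for that gene. Among the 49 vehicle libraries, Olig2 ranged from -1.30 to 0.80 with a median of -0.089 (SD 0.442). Its SD was above that of 78.3% of the 13304 genes. Cspg4 ranged from -1.06 to 0.73 (median 0.041, SD 0.368), and Mbp from -0.74 to 0.51 (median -0.096, SD 0.261). Olig1 varied least, from -0.99 to 0.37 (median -0.025, SD 0.231), and 1 vehicle library set its low end, since the next lowest was at -0.54. Among the 13 chemicals with 2 libraries, the libraries of a chemical differed by a median of 0.34 for Olig1, 0.30 for Olig2, 0.44 for Cspg4 and 0.26 for Mbp, and by as much as 1.59 for Olig2.

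Topotecan, an inhibitor of topoisomerase I, lowered Olig1 and raised Mbp. These were 2 of the 4 members at an adjusted p under 0.05 (limma with a variance trend, Benjamini-Hochberg adjustment), in a comparison that called 45.8% of all genes, 24.9% as higher and 20.9% as lower. Olig1 ranged from -0.81 to 0.54 in the 32 topotecan libraries, with a median of -0.47, and 30 of them lay below the vehicle median. The ranges overlapped. Its log2 difference was -0.39 (SE 0.0570, limma adjusted p = 1.17e-08), or 0.762 times vehicle on the normalized scale of the screen. A two-sided permutation test gave p = 1e-05, the smallest that 100000 permutations can give (adjusted over the 4 members, 4e-05).

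Mbp ranged from -0.35 to 0.58 with topotecan (median 0.11), and 27 of 32 libraries lay above the vehicle median. It was higher by 0.20 (SE 0.0559, limma adjusted p = 0.00203, permutation p = 0.00053). Olig2 ranged from -1.02 to 0.19 with a median of -0.22, and differed by -0.19 (SE 0.0904, limma adjusted p = 0.0863, permutation p = 0.0455). Cspg4 ranged from -1.14 to 0.69 with a median of -0.18, and differed by -0.17 (SE 0.0890, limma adjusted p = 0.119, permutation p = 0.0682). Neither passed the threshold after adjustment.

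At the same 0.3 μM, the single library of camptothecin, the parent compound of topotecan, had Olig1 at -0.19 and Mbp at -0.17. Both values lay inside the topotecan range and inside the vehicle range. Against the vehicle median they differed by -0.17 and -0.078, whereas topotecan raised Mbp. Irinotecan, another camptothecin derivative, was given at 10 μM, and its single library had Olig1 at -0.081 and Mbp at 0.032. With 1 library each, these differences have no replicate check.

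**Figure D3:**
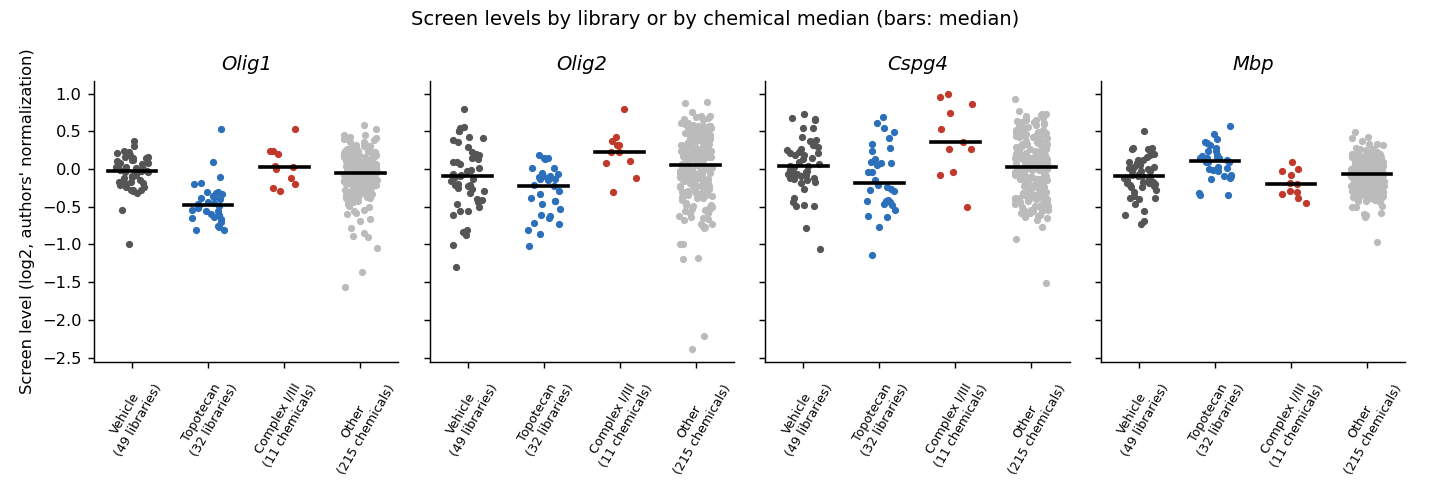
Screen levels in log2 units (vertical axis) of the 4 members in vehicle libraries, topotecan libraries, the medians of 11 complex I or complex III inhibitors and the medians of 215 other chemicals. Points are libraries or chemicals and bars are medians. Topotecan lies lower for Olig1 (median -0.47 against -0.025 in vehicle) and higher for Mbp (0.11 against -0.096), and the complex I and III inhibitors lie higher for Cspg4 (0.36).

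Topoisomerase I inhibitors are known to lower long genes, so gene span was set beside the topotecan differences. Of 1890 screen genes that span more than 100 kb, 65.4% fell and 6.14% rose, whereas of 10371 shorter genes 12.6% fell and 28.4% rose. Olig1 spans 2.17 kb and fell. Mbp spans 110 kb, golli exons included, and rose. Olig2 (3.13 kb) and Cspg4 (34.8 kb) did not pass the test. Each of the called members thus moved in the direction taken by the smaller share of genes of its length class.

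Other lineage genes moved in both directions, where 20.9% of all genes fell and 24.9% rose. Spans were used only where a gene had 1 annotated span, which held for 34 of 36 lineage genes and 12261 of 13304 screen genes. Pcdh15 was left out by this rule. Over 100 kb, 8 of 11 lineage genes fell (72.7%, against 65.4% of all genes of that length). At 100 kb or less, 7 of 23 fell (30.4%, against 12.6%). Among 14 precursor genes 9 fell and 1 rose, led by Pcdh15 (-1.85, SE 0.103), Lhfpl3 (-0.92, SE 0.0707) and Sox5 (-0.88, SE 0.0523), while Epn2 rose by 0.080. Lhfpl3 and Sox5 span 367 and 954 kb. Of 9 committed-stage genes 5 fell and 0 rose at a limma adjusted p under 0.05. They were led by Nkx6-2 (-0.50, SE 0.0864), a homeobox factor of 3.42 kb, followed by Tmem163 (-0.36) and Rras2 (-0.33). Of 9 myelin genes 3 rose and 1 fell: Cnp, which encodes the myelin enzyme CNPase, rose by 0.43 (SE 0.0674), Mog by 0.20 and Tspan2 by 0.20, and Ugt8a, a galactolipid synthase gene, fell by 0.35 on the log2 scale. Growth factor signals split, with 4 higher and 5 lower of 18, among them Igf1 (-0.49) and Gli2 (-0.45). Astrocyte markers fell in 6 of 8 cases, and their mean level was -0.64 to 0.54 in vehicle and -0.85 to -0.055 with topotecan. Dividing-cell markers fell in 4 of 5 cases, led by Cdk1 (-0.64) and Ccnb1 (-0.52), and their mean level had a median of 0.048 in vehicle and -0.46 with topotecan. Neuronal markers fell in 6 cases of 8 and rose in 2, with mean levels of -0.17 to 0.18 in vehicle and -0.68 to -0.032 with topotecan. Their part in the Olig1 difference was not tested.

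**Figure D4:**
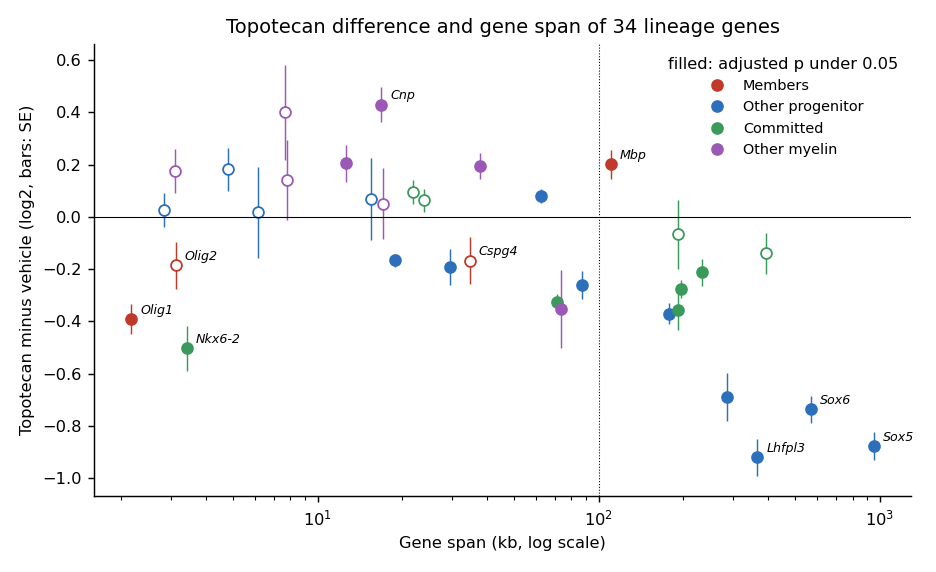
Topotecan minus vehicle difference in log2 units (vertical axis, bars give the SE) against gene span in kb on a log axis for 34 lineage genes. Filled points have a limma adjusted p under 0.05, and the dotted line marks 100 kb. Olig1 (-0.39) and Nkx6-2 (-0.50) fell at spans under 4 kb, Mbp (0.20) rose at 110 kb, and the lowest points, Lhfpl3, Sox5 and Sox6, span more than 300 kb. Pcdh15 (-1.85), without a single annotated span, is not shown.

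The 11 inhibitors of mitochondrial complex I or III were compared with 215 other chemicals, to ask whether the pyraclostrobin pattern was shared by chemicals with a like target. Cspg4 was the member that rose, in a comparison that called 25.5% of all genes, 9.1% as higher and 16.3% as lower. Its chemical medians ranged from -0.50 to 1.00, with a median of 0.36, and 8 of the 11 lay above the vehicle median. The log2 difference was 0.38 (SE 0.121, limma adjusted p = 0.00922). The call was lost without pyraclostrobin, fenamidone, famoxadone and trifloxystrobin, at 0.15 (SE 0.149, limma adjusted p = 0.792). That setting was not planned. It removed the chemicals ranked 267, 292, 297 and 296 of 297 from the lowest Cspg4, so a smaller difference was built into the choice. Olig2 differed by 0.20 (SE 0.131, limma adjusted p = 0.280) and Olig1 by 0.12 (SE 0.0887, limma adjusted p = 0.360). Mbp differed by -0.12 (SE 0.0693, limma adjusted p = 0.203).

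Single chemicals of this class spread widely, and their doses ranged from 0.01 to 10 μM. Famoxadone at 10 μM had the highest Cspg4 of all 297 chemicals, at 0.80 and 1.20 in its 2 libraries. Trifloxystrobin at 10 μM (0.96) and fenpyroximate at 0.1 μM (0.86) followed within the class, each with 1 library. Fenamidone at 10 μM had Cspg4 at 0.66 and 0.83, Olig1 at -0.067 and 1.14, and Olig2 at 0.30 and 1.30. It was the chemical whose medians lay above the vehicle range for Cspg4, Olig1 and Olig2 alike, although its 2 libraries differed by 1.21 for Olig1. Rotenone at 0.01 μM had Cspg4 at -0.060 and 0.77, a difference of 0.83 between its 2 libraries.

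The strobilurins azoxystrobin and pyraclostrobin, a methoxyacrylate and a methoxycarbamate, were both given at 0.1 μM. Azoxystrobin had Cspg4 at -0.61 and -0.40 in its 2 libraries, and the single screen library of pyraclostrobin had it at 0.53. For Olig1 the values were -0.21 and 0.22 against 0.23, and for Olig2 0.053 and 0.41 against 0.32. With 3 libraries no test was made. The pyraclostrobin library of the screen is also replicate 1 of the count table. By counts it lay above vehicle replicate 1 by 2.005 for Cspg4, 0.66 for Olig1 and 1.09 for Olig2 on the log2 scale. In the screen it lay above the vehicle median by 0.49, 0.26 and 0.41. The 2 tables were normalized differently, so their log2 values are not directly comparable. The difference of complex I from complex III inhibitors passed the test for no member, and was -0.070 for Cspg4 (SE 0.245). The contrast called 0 of 13304 genes with limma and 0 members at an unadjusted p under 0.05.

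Beside Cspg4, 3 of 14 precursor genes rose and 4 fell with these inhibitors, where 9.1% of all genes rose and 16.3% fell. Ednrb (0.41), Sox6 (0.25) and Ptprz1 (0.17) rose, and Pcdh15 (-0.47), Lhfpl3 (-0.41) and Sox5 (-0.29) fell most. Tns3 (0.42) and Itpr2 (0.41) rose and Gpr37 (-0.29) and Fyn (-0.12) fell among 9 committed-stage genes, and Mog (-0.45) and Omg (-0.37) fell among 9 myelin genes. Of 18 growth factor signals 9 rose and 0 fell by limma, led by Pdgfrb (0.51), Notch1 (0.41) and Fgfr1 (0.38). The pyraclostrobin library of the screen, which is also in the count table, enters these values. Pericyte and smooth muscle markers rose in 2 of 3 cases and had a mean level of -0.74 to 2.05 in the 11 inhibitors, against -1.14 to 1.18 in the other chemicals. Fibroblast markers rose in 3 of 5 cases (Col1a1 by 0.77 and Fn1 by 0.70) and astrocyte markers in 5 of 8 (Gfap by 0.54 and Gja1 by 0.42), with mean astrocyte levels of -0.0076 to 0.56 against -1.03 to 0.54. Neuronal markers fell in 7 of 8 cases, with mean levels of -0.61 to 0.074 against -0.37 to 0.23, and interneuron genes in 6 of 7, led by Gad2 (-0.91). None of the 4 microglial and 5 dividing-cell markers was called, with median log2 differences of 0.21 and 0.35. The part of these cell types in the Cspg4 difference was not tested.

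The 12 pyrethroids, 15 sterol demethylase inhibitors, 5 dithiocarbamates and 36 organophosphates called 0 of the 16 member tests by limma, and 1 of 16 at an unadjusted p under 0.05. That one was Olig2 with pyrethroids, insecticides that hold sodium channels open. Its levels ranged from -1.13 with fenpropathrin to 0.26 with prallethrin (median -0.41), and it differed from the other chemicals by -0.40 (SE 0.126, unadjusted p = 0.00177, limma adjusted p = 0.0725). The pyrethroid comparison called 1.79% of all genes, 0.767% as higher and 1.02% as lower. The sterol demethylase comparison called 0.316% (0.188% higher, 0.128% lower), the dithiocarbamate comparison 0.00752%, and the organophosphate comparison 0.0827% (0.0752% higher, 0.00752% lower). The differences of the other members were between -0.25 (Cspg4, dithiocarbamates) and 0.11 (Mbp, pyrethroids).

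Single chemicals were next set against the range of the 49 vehicle libraries. Over all genes and chemicals, 4.77% of chemical medians lay outside that range, 2.07% above and 2.69% below. Of 297 chemicals, 16 lay outside it for Olig1 (12 above, 4 below), 8 for Cspg4 (7 above, 1 below), 5 for Olig2 (3 above, 2 below) and 2 for Mbp, both below. The median gene had 12. These counts depend on single vehicle libraries. With the highest and lowest vehicle library left out of each range, they were 35 for Olig1 (18 above, 17 below), 28 for Olig2 (23 above, 5 below), 17 for Cspg4 (13 above, 4 below) and 15 for Mbp (13 above, 2 below), and the median gene had 25.

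TCMTB, a biocide, and flutolanil, a succinate dehydrogenase inhibitor used as a fungicide, had the lowest values of both Olig genes at 10 μM. TCMTB had Olig1 at -1.56 and Olig2 at -2.39, and flutolanil had them at -1.36 and -2.21. In the same libraries Mbp was at 0.044 and 0.068 and Cspg4 at -0.34 and 0.097, inside the vehicle range. The mean of the 8 astrocyte markers was -1.03 with TCMTB and 0.044 with flutolanil, and that of 5 dividing-cell markers was -1.52 and -0.59. Difenoconazole, a sterol demethylase inhibitor, had the next lowest Olig1 (-1.31) with Olig2 at 0.047, and mesotrione the next lowest Olig2 (-1.20) with Olig1 at -0.40. Each had 1 library, so that none of these values has a replicate check.

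At the other end, formetanate hydrochloride at 10 μM (0.58), fenamidone (0.54) and zoxamide at 1 μM (0.53) had the highest Olig1. Spirodiclofen (0.89), tebuthiuron (0.87) and fenamidone (0.80) had the highest Olig2. Famoxadone (1.00), trifloxystrobin (0.96) and iodosulfuron-methyl-sodium (0.93) had the highest Cspg4, and the last of these had Olig2 at -0.67. Thiobencarb (-1.51), maleic hydrazide (-0.92) and metiram-zinc (-0.85) had the lowest Cspg4. With thiobencarb, Olig1 was above the vehicle range at 0.45. Mbp was lowest with oxyfluorfen (-0.96), myclobutanil (-0.74) and sethoxydim (-0.64) and highest with endosulfan (0.50), pyraflufen-ethyl (0.42) and metiram-zinc (0.42). These highest Mbp values, the sethoxydim value and the Cspg4 values of maleic hydrazide and metiram-zinc lay inside the vehicle range. Fenamidone and famoxadone had 2 libraries each. Every other chemical named here had 1, so those values have no replicate check.

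Olig1 and Olig2 varied together. Over the 49 vehicle libraries, Pearson's r was 0.389 (permutation p = 0.00598) and Spearman's rho 0.337 (permutation p = 0.0185). Adjusted over the 6 pairs of members the p-values were 0.0359 and 0.111, so that only Pearson's passed 0.05. Without the 2 libraries farthest from the Olig1 median, r was 0.374 (permutation p = 0.0095, adjusted 0.057). The remaining pairs had rho between -0.202 (Olig1 and Mbp) and 0.0978 (Cspg4 and Olig1), and none passed after adjustment.

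Across the medians of 294 chemicals other than topoisomerase I inhibitors, Olig1 and Olig2 had a rho of 0.328 (permutation p = 1e-05, the smallest that the permutations can give, adjusted 6e-05) and an r of 0.481. Without the 2 chemicals farthest for Olig1, rho was 0.314, and over the 276 chemicals inside the vehicle range for both genes it was 0.259 (permutation p = 3e-05). Of 13303 genes, Olig1 had the highest rho with Olig2 over chemicals, and Olig2 was the 36th with Olig1. In vehicle libraries the ranks were 298 and 307. Cspg4 and Olig1 had a rho of 0.212 over chemicals (adjusted permutation p = 6e-04). The chemicals share sequencing batches that the labels do not name, so no value within batches could be given.

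The genes whose levels followed each member most closely were found over the 49 vehicle libraries by Spearman's rho, as a description. For Olig1 they were Apoe (0.642), Slc1a3 (0.615) and Abhd4 (0.599). Apoe encodes a lipid carrier and Slc1a3 a glutamate transporter, both abundant in astrocytes. The 8 astrocyte markers had a median rho of 0.446 with Olig1 in vehicle libraries and 0.358 over chemicals, where the median of all genes was 0.0027 and -0.0023. For Olig2 the 3 genes were 1700003M07Rik (0.542), Rapgef6 (0.520) and the growth factor receptor Fgfr2 (0.519), which over chemicals had -0.038, -0.027 and 0.158.

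For Cspg4 they were the cell division gene Cdc20 (0.539), the actin-binding gene Cald1 (0.519), which is abundant in smooth muscle, and the cytokine gene Il33 (0.518). Over chemicals Cald1 had 0.314, Cdc20 0.066 and Il33 -0.028. The 3 pericyte and smooth muscle markers of the screen had a median rho of 0.327 with Cspg4 in vehicle libraries and 0.265 over chemicals. For Mbp they were Camk1d (0.646), Pgam1 (0.646) and Cplx2 (0.641), the last a regulator of synaptic vesicle release in neurons. Over chemicals Camk1d had 0.066, Pgam1 0.25 and Cplx2 -0.046. The 9 other myelin genes had a median rho of -0.024 with Mbp, and the 8 neuronal markers had 0.203.

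**Figure D5:**
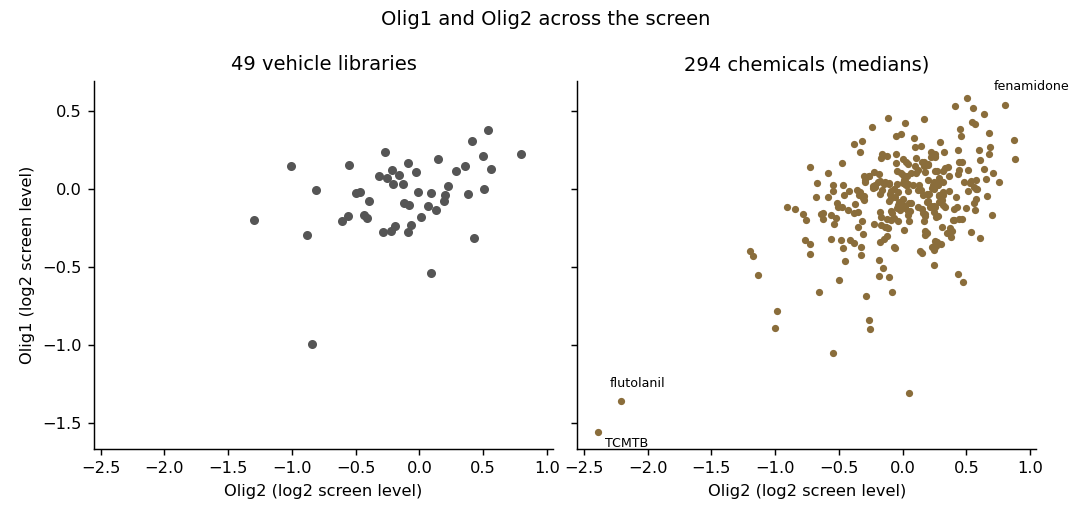
Olig1 against Olig2 in log2 screen units, for 49 vehicle libraries on the left (rho 0.337) and the medians of 294 chemicals on the right (rho 0.328). Each point is a library or a chemical, and TCMTB and flutolanil lie at the lower left, below -1.3 for Olig1 and -2.2 for Olig2.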

How the data were processed

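The authors aligned reads with TopHat to mm9, per the labels. The deposited counts are reads over gene models per gene symbol, and the deposited log10 values are expression per length and depth that the authors quantile-normalized, centered per gene and corrected for batch. Here, log10 values were converted to log2. Counts were tested with edgeR 4.0.16 (TMM scaling, at least 10 counts in 4 libraries, threshold 0.01) and the screen with limma 3.58.1 (threshold 0.05), each on all genes, after both were tested on simulated data. Topotecan was compared with vehicle over libraries, and other chemicals over chemical medians grouped by known mode of action. Named genes were all members, up to 3 called genes per direction of each lineage list, the 3 nearest genes and the 3 highest and lowest chemicals of each member. Members and lists were chosen with earlier results of these data known. Same-numbered pyraclostrobin and vehicle libraries were not treated as pairs, since their deviations correlated at -0.029 to 0.376. Those of different numbers correlated at -0.308 to 0.218, and the highest value of all was that of replicate 1. For pyraclostrobin the study gives n = 3 biological replicates in a figure legend and n = 4 sample replicates for its gene list. It calls the controls matched, without saying that a number marks a pair. The labels do not say that the replicates were separate cultures, so p-values measure the spread between these libraries. Depth behind the log10 values is unknown. The mm9 GENCODE annotation gave spans and sequences. A second count table was not used, because its 6 columns could not be matched to samples.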

Additional observations from a re-analysis of the deposited data

Results flagged for a closer look

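In a group of 4 libraries, a library was singled out where its gap to the nearest other library as a share of the range of the group, exceeded Dixon's critical value. Of 12 groups examined (Olig1, Olig2, Cspg4 and Mbp in pyraclostrobin and vehicle by CPM, and in the 4 diethyltoluamide libraries of the screen), 2 met this rule, where chance flags about 1 in 20. Olig1 in vehicle replicate 1 (144 CPM after TMM scaling) had a gap of 0.895 of the range. Olig1 in pyraclostrobin replicate 1 (228) had a gap of 0.897. Both libraries carry the same number and the highest astrocyte marker sums of their groups (1254 and 4011 CPM), and the part of those cells in the Olig1 level was not tested.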

How the results depend on the processing

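Cspg4 and Olig2 stayed higher and past 0.01 with pyraclostrobin under all 15 alternatives, at 1.98 to 2.15 and 1.32 to 1.79 on the log2 scale. Olig1 kept its direction (0.68 to 1.46, adjusted p 9.48e-09 to 0.150). The replicate block, for libraries that share only a number, gave Olig1 1.06 (adjusted p = 3.07e-04), left 3 members called and raised the genes called from 2631 to 3135. Leaving out 1 library at a time gave 2 to 3 members called and 1682 to 4052 genes. Genes called rose to 4301 at a threshold of 0.05 and to 4874 without replicate 1.

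For topotecan, restriction to variably expressed genes left 0 of 2 members called, because Olig1 and Mbp are not among those 5121 genes, and moved the genes called from 6090 to 1788. For complex I and III inhibitors, 1 member was called. That count was 2 for single libraries against vehicle (Olig2 0.37), 0 for complex I inhibitors alone (Cspg4 0.34) and 0 without the 4 fungicides named above. The cause was not tested. It stayed at 1 with each chemical left out. Genes called were 3386, and 696 for variably expressed genes, 872 for complex I alone and 439 without the 4 fungicides.

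A vehicle range without its highest and lowest library raised the chemicals outside from 31 to 95 over the members. Member pairs that passed were 0 by Spearman, 1 by Pearson and 2 over chemical medians. Signs that reversed were all in uncalled values near 0. Against vehicle, sterol demethylase inhibitors gave Cspg4 -0.047 and Olig2 0.014. Leaving out dithiocarbamates in turn gave Olig1 -0.075 to 0.066, Olig2 -0.046 to 0.23 and Mbp -0.075 to 0.13. Cspg4 and Mbp had a Pearson r of 0.037 over vehicle libraries. Single libraries against vehicle called 512, 420, 80 and 290 genes for pyrethroids, sterol demethylase inhibitors, dithiocarbamates and organophosphates, against 238, 42, 1 and 11. The comparison of sulforaphane with fenamidone was not run, since its columns could not be matched to samples.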

Other observations

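The 4 libraries of diethyltoluamide, an insect repellent, were the deepest replication of a chemical other than topotecan. Cspg4 was at -0.83, -0.86, -0.055 and -0.12, in 2 libraries near the low end of the vehicle range and in 2 near its middle. Olig2 was at -0.26, -0.72, 0.34 and -0.42 in the same libraries. Mancozeb and chlorothalonil, each with 2 libraries, had Olig2 at -1.36 and 0.24 and at -0.94 and 0.63. Thiram had Mbp at -0.997 and 0.21, which is wider than the whole spread of Mbp with topotecan (-0.35 to 0.58).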
